A study of Homo sapiens with 12 samples.

Results

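The S100 genes encode small proteins of a calcium-binding family. Of these genes, 10 were followed through 4 stable lines of HCT116, a human colorectal cancer cell line. They are S100A2, S100A3, S100A4, S100A6, S100A10, S100A11, S100A13, S100A14, S100A16 and S100P, taken by symbol from a count table of 28395 genes. Each of the 10 was among the 15853 tested genes, those that reached 0.5 CPM (reads of a gene scaled to the total of its library) in at least 3 libraries. The line called EV carried an empty pcDNA vector, and the EHF line was given a plasmid for expression of EHF. For both, clones resistant to geneticin (G418) were isolated. The cells of the CDX1 line were transduced with a CDX1 retrovirus that also encodes GFP and were sorted for GFP. EHF+CDX1 cells, the line with both factors, were derived from CDX1 cells by transfection with the EHF plasmid and selection of geneticin-resistant clones. Each line was sequenced as 3 libraries of polyA RNA. The EV and EHF lines did not go through the retroviral transduction and sort. The effect of CDX1 and that of the vector and sort therefore cannot be told apart in CDX1 or EHF+CDX1 against EV or EHF cells. No geneticin selection or isolation of clones is described for the CDX1 line. CDX1 against EV or EHF cells therefore also differs by clone isolation and geneticin, which cannot be told apart from CDX1 either. An effect of EHF and that of the isolated clones cannot be told apart in EHF against EV cells.

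An S100 protein folds as a pair of EF-hands, the helix-loop-helix unit that holds calcium, and most S100 proteins work as dimers. In most of them, though not in all, calcium binding exposes a surface that docks on other proteins. Partners of S100 proteins include annexins at the membrane, non-muscle myosin in the cytoskeleton and the receptor RAGE outside the cell. Several S100 genes are known for their expression in carcinomas, where S100A4 and S100P are linked to motility and spread. EHF is an epithelial transcription factor of the ETS family and CDX1 an intestinal homeobox factor of the caudal family.

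The largest contrasts among the 4 lines were those of S100P, S100A4 and S100A14, and the 250 bases before their RefSeq starts are printed because these 3 genes had the widest spread between lines. Capitals mark GGAAG, a core that ETS factors bind, and TTTAT, a core that caudal factors bind, each searched on both strands, so that CTTCC and ATAAA are their reverse complements. S100P lies on the plus strand of chromosome 4 and its window is chr4:6693628-6693877, while S100A4 at chr1:153545807-153546056 and S100A14 at chr1:153616326-153616575 lie on the minus strand, all in GRCh38.p14.
S100P promoter: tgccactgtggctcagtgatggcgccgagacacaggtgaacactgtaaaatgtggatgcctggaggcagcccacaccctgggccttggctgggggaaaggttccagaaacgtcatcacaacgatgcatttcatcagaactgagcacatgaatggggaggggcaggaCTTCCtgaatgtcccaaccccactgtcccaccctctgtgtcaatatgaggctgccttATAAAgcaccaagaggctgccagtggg
S100A4 promoter: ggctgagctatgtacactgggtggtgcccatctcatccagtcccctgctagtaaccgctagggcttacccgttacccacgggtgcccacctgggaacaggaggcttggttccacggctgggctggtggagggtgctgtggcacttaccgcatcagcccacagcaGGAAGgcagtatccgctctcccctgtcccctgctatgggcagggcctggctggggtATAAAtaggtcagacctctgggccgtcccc
S100A14 promoter: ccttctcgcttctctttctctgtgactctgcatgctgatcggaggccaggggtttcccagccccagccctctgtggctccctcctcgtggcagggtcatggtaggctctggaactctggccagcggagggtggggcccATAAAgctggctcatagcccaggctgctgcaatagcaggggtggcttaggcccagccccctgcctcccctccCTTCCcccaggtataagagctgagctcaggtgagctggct
The S100P window held GGAAG from 84 bases and TTTAT from 27 bases before the start, and the S100A4 window held them from 86 and 30 bases before it. In both, the TTTAT match lay within TATAAA, the TATA box motif, which itself started 28 bases before S100P and 31 bases before S100A4. The S100A14 window held GGAAG from 40 and TTTAT from 112 bases before the start. Among all 35116 promoter windows of this length in the RefSeq table, 65.1% held GGAAG, 32.7% held TTTAT and 10.7% held TATAAA. Of the 14 windows of the 10 S100 genes, 13 held GGAAG, 6 held TTTAT and 3 held TATAAA. Counted by gene, where some genes have several windows, these were 9, 5 and 3 of the 10 genes. A match describes the letters of the window and does not show a bound factor.

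The libraries held 13523007 to 74186741 counts, at which 3 counts, the limit that a count of 0 allows, correspond to between 0.0375 and 0.207 CPM. This limit covers counting error only. EHF averaged 19310 CPM in EHF and 18710 CPM in EHF+CDX1 cells, against 299 CPM in EV and 12.3 CPM in CDX1 cells. A comparison of CDX1 with EV cells is thus also one of different EHF levels. CDX1 averaged 525 CPM in CDX1 and 5419 CPM in EHF+CDX1 cells, and no library of the other lines held more than 4 CDX1 reads, so that both lines carried CDX1 but at different levels. EV replicate 3 stood apart from its group, with 297 and 270.4 as the chi-square of its counts over degrees of freedom against replicates 1 and 2, which differed from each other by 4.11. The epithelial genes EPCAM, CDH1, KRT8, KRT18 and KRT19 were present in every library, with a sum of 2361 to 2859 CPM in CDX1 libraries, below the 4176 to 5440 CPM of the other lines. The lower sum came mainly from KRT8, KRT18 and KRT19. EPCAM was highest in CDX1 cells, at 490.7 CPM on average against 265.2, 311.3 and 356.4 CPM in EV, EHF and EHF+CDX1 cells. CDH1 averaged 116.9 CPM in CDX1, 212.5 CPM in EV, 102.1 CPM in EHF and 110.6 CPM in EHF+CDX1 cells. EV replicate 3 raised both EV means. In the EV libraries CDH1 was at 134.3, 129.2 and 374.1 CPM and EPCAM at 213.3, 222.1 and 360.3 CPM. The study calls its RNA-seq replicates biological but counts fewer of them per line than the libraries deposited, and the labels do not tie libraries to separate cultures. The p-values measure the spread between these libraries, part of which may be technical.

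S100P, a calcium sensor first found in placenta that binds ezrin, was close to absent in EV and EHF cells and was highest in EHF+CDX1 cells. Its reads numbered 0, 0 and 19 in EV, 1, 5 and 3 in EHF, 35, 21 and 27 in CDX1 and 394, 285 and 103 in EHF+CDX1 libraries. The corresponding levels in EHF+CDX1 cells were 6.88, 5.41 and 7.12 CPM, above the 0.767, 0.53 and 0.695 CPM of the CDX1 libraries, and both of these lines lay above every library of the remaining lines. The 2 lowest lines overlapped, and S100P passed the filter on CPM through the CDX1 and EHF+CDX1 libraries alone.

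Mean S100P was 6.47 ± 0.927 CPM (SD, n = 3) in EHF+CDX1 and 0.664 ± 0.121 CPM in CDX1 cells, a 9.74-fold difference of means. On the log2 scale, S100P rose by 3.27 (SE 0.51) from CDX1 to EHF+CDX1 cells (edgeR test against a 1.5-fold change, adjusted p = 0.000356). The fitted differences of 6.61 (SE 0.69) from EHF and 5.22 (SE 0.62) from EV cells passed too. S100P entered these tests only through the lines where it was high, and the EHF+CDX1 libraries alone were enough. All these values are therefore a description. Since EV replicates 1 and 2 held no S100P read, the fitted value against that line rests on the 19 reads of replicate 3. Against the limit of 3 counts per library in replicates 1 and 2, EHF+CDX1 cells were at least 45.6-fold higher and CDX1 cells at least 4.68-fold higher. Against the 0.349 CPM of EV replicate 3 the means were 18.5-fold and 1.9-fold higher.

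S100P also passed the test in CDX1 against EV cells, with the same limit, at a log2 difference of 1.95 (SE 0.66, adjusted p = 0.0444). This call was lost when any library other than EV replicate 3 was left out, with adjusted p-values between 0.051 and 0.108 and log2 differences between 1.52 and 2.09. Without EV replicate 3 the line holds no S100P read, and the fitted difference of 7.74 then depends on the prior count.

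S100A4, which binds non-muscle myosin and is known for promoting cell motility, had the opposite pattern in the CDX1 line. It measured 213.6, 182.3 and 124.3 CPM in EV, 152.9, 148.7 and 142.3 CPM in EHF, 18.95, 38.35 and 28.02 CPM in CDX1 and 91.4, 104.2 and 96.8 CPM in EHF+CDX1 libraries. The CDX1 libraries were the lowest, the EHF+CDX1 libraries lay between them and the rest, and EV overlapped EHF. The mean fell from 173 ± 45.3 CPM in EV to 28.4 ± 9.71 CPM in CDX1 cells (SD, n = 3), 6.1-fold lower, with a log2 change of -2.61 (SE 0.24, adjusted p = 5.57e-06). In EHF+CDX1 cells S100A4 was 3.43-fold higher than in CDX1 cells, a log2 change of 1.78 (SE 0.23, adjusted p = 0.000261).

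Between EHF+CDX1 and EV cells, S100A4 differed by -0.83 on the log2 scale (SE 0.23) and missed the 1.5-fold test (adjusted p = 0.305). Without EV replicate 3, the library with the least S100A4 in that line, the difference was -1.02 and passed it (adjusted p = 0.0116).

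S100A14, a membrane-associated S100 protein of epithelia, went up in CDX1 cells and down in EHF+CDX1 cells. It measured 276.8, 258.5 and 255.4 CPM in EV, 185.7, 184.6 and 184.7 CPM in EHF, 544.3, 578.3 and 531.2 CPM in CDX1 and 139.5, 134.4 and 146.9 CPM in EHF+CDX1 libraries. None of the 4 lines overlapped, in the order CDX1, EV, EHF and EHF+CDX1 from high to low. S100A14 rose by 1.06 on the log2 scale (SE 0.08) from EV to CDX1 cells (adjusted p = 3.22e-05). It fell by 0.91 (SE 0.08) from EV to EHF+CDX1 cells (adjusted p = 0.00239), and by 1.98 (SE 0.08), or 3.93-fold, from CDX1 to EHF+CDX1 cells (adjusted p = 3.4e-08). The difference between EHF and EV cells was -0.51 (SE 0.08), under 1.5-fold.

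S100A10 and S100A11 are the annexin partners of the group: S100A10 joins ANXA2 at the inner face of the membrane, where the complex takes part in plasminogen activation, and S100A11 binds ANXA1. S100A10 measured 120.4, 109.1 and 87.3 CPM in EV, 113.9, 116.0 and 109.6 CPM in EHF, 303.7, 265.2 and 240.7 CPM in CDX1 and 132.5, 141.3 and 144.9 CPM in EHF+CDX1 libraries. S100A11 measured 93.5, 96.3 and 80.9 CPM in EV, 114.2, 113.0 and 112.5 CPM in EHF, 192.4, 202.7 and 182.2 CPM in CDX1 and 133.3, 133.0 and 132.5 CPM in EHF+CDX1 libraries. For both genes the CDX1 libraries were the highest and the EHF+CDX1 libraries the next, without overlap. From EV to CDX1 cells S100A10 rose 2.56-fold (log2 1.35, SE 0.12, adjusted p = 2.9e-05) and S100A11 2.13-fold (log2 1.09, SE 0.09, adjusted p = 3.68e-05). From CDX1 to EHF+CDX1 cells S100A10 fell by 0.95 on the log2 scale (SE 0.12, adjusted p = 0.00417), while S100A11 differed by -0.53 (SE 0.08) and missed the 1.5-fold test (adjusted p = 0.687).

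S100A16, a broadly expressed member whose gene adjoins S100A14, was also highest in CDX1 cells. It measured 109.8, 112.6 and 115.0 CPM in EV, 153.4, 159.3 and 161.0 CPM in EHF, 252.1, 274.6 and 262.2 CPM in CDX1 and 144.6, 135.5 and 138.3 CPM in EHF+CDX1 libraries. The 4 lines did not overlap, with CDX1 highest and EV lowest. S100A16 rose 2.34-fold in CDX1 over EV cells (log2 1.23, SE 0.08, adjusted p = 2.13e-06) and fell by 0.91 (SE 0.07) from there to EHF+CDX1 cells (adjusted p = 0.000393).

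S100A6, or calcyclin, a partner of the ubiquitin ligase adaptor CACYBP, was the most abundant S100 transcript per length in every line. It measured 857.7, 713.5 and 746.2 CPM in EV, 594.2, 586.6 and 574.9 CPM in EHF, 565.6, 719.1 and 656.4 CPM in CDX1 and 421.0, 436.9 and 424.0 CPM in EHF+CDX1 libraries. The EHF+CDX1 libraries were below all others, and CDX1 overlapped both EV and EHF. S100A6 fell 1.81-fold from EV to EHF+CDX1 cells (log2 -0.85, SE 0.11, adjusted p = 0.0318). The size of this difference lay close to the 1.5-fold limit, and the call was lost without EV replicate 1 (log2 -0.77, adjusted p = 0.119) and without EHF+CDX1 replicate 1 (-0.84, adjusted p = 0.0899), replicate 2 (-0.85, adjusted p = 0.076) or replicate 3 (-0.85, adjusted p = 0.0823), and with DESeq2 (-0.85, adjusted p = 0.125).

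S100A2, a nuclear member that binds p53, S100A3, a hair cuticle protein, and S100A13, which takes part in the secretion of FGF1 without a signal peptide, were at lower levels. S100A2 averaged 10.42 ± 2.38 CPM in EV, 7.07 ± 1.78 CPM in EHF, 16.7 ± 0.675 CPM in CDX1 and 8.68 ± 0.651 CPM in EHF+CDX1 cells (SD, n = 3). The CDX1 libraries, at 17.46, 16.5 and 16.16 CPM, lay above all others, and the remaining lines overlapped with their neighbours. S100A2 fell by 0.94 (SE 0.19) from CDX1 to EHF+CDX1 cells (adjusted p = 0.0338), a call lost without CDX1 replicate 1 or 2 (log2 -0.91 and -0.95, adjusted p = 0.0745 and 0.0536) or EHF+CDX1 replicate 1 or 3 (-0.93 and -0.90, adjusted p = 0.0692 and 0.0782).

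S100A3 measured 4.87, 4.64 and 4.08 CPM in EV, 4.73, 3.93 and 4.21 CPM in EHF, 1.29, 2.68 and 1.16 CPM in CDX1 and 3.72, 3.98 and 2.35 CPM in EHF+CDX1 libraries. It was lowest in CDX1 cells, where replicate 2 overlapped the EHF+CDX1 libraries. S100A3 fell by 1.40 (SE 0.30) from EV to CDX1 cells (adjusted p = 0.008). The difference of 1.005 (SE 0.30) between EHF+CDX1 and CDX1 cells missed the 1.5-fold test (adjusted p = 0.0732). It passed without CDX1 replicate 2 (1.48, adjusted p = 0.00269), EHF+CDX1 replicate 3 (1.17, adjusted p = 0.0382) or EV replicate 3 (1.04, adjusted p = 0.0261).

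S100A13 measured 43.5, 36.3 and 48.5 CPM in EV, 39.1, 39.7 and 40.2 CPM in EHF, 56.6, 62.1 and 55.2 CPM in CDX1 and 24.0, 30.5 and 29.4 CPM in EHF+CDX1 libraries. CDX1 was highest, EHF+CDX1 lowest and neither overlapped another line. S100A13 fell 2.07-fold between these lines (log2 -1.05, SE 0.12, adjusted p = 0.000958), and its difference of 0.44 (SE 0.12) between CDX1 and EV cells was under 1.5-fold.

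Counted over the 10 genes, CDX1 cells differed most from EV cells, where 7 genes passed the 1.5-fold test, 5 of them higher (S100A10, S100A11, S100A14, S100A16 and S100P) and 2 lower (S100A3 and S100A4). Of all tested genes, 44.6% passed in this comparison, 21.3% higher and 23.3% lower. In EHF+CDX1 against EV cells 3 genes passed, S100P higher and S100A6 and S100A14 lower, where 10.4% of all tested genes did, 7.3% higher and 3.13% lower. The median log2 change of the 10 genes was 0.88 in CDX1 and -0.32 in EHF+CDX1 cells, beside -0.03 over all tested genes in both comparisons. These comparisons share the EV libraries, and S100P entered both through the lines where it was high. Among the other 9 genes, 6 passed in CDX1 and 2 in EHF+CDX1 against EV cells.

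Between EHF and EV cells none of the 10 genes passed, where 8.33% of all tested genes passed. At an unadjusted p under 0.05 the count against a 1.5-fold change was also 0, as it was with DESeq2 and with limma at an adjusted p of 0.05. Against no change rather than 1.5-fold, 4 of the genes differed from EV cells in edgeR, beside 30.1% of all tested genes. These were S100A6 (log2 -0.40, SE 0.11, adjusted p = 0.0135) and S100A14 (-0.51, SE 0.08, adjusted p = 0.000486), which were lower, and S100A11 (0.33, SE 0.08, adjusted p = 0.012) and S100A16 (0.49, SE 0.07, adjusted p = 0.000441), which were higher.

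Between the EHF+CDX1 and CDX1 lines 7 of the 10 genes passed the 1.5-fold test, where 41.0% of all tested genes passed, 22.3% higher and 18.7% lower. S100P and S100A4 were higher and S100A2, S100A10, S100A13, S100A14 and S100A16 lower in EHF+CDX1 than in CDX1 cells. For S100P the limit of the filter given above holds here too. With limma voom and quantile normalization S100A10 (-0.51) and S100A16 (-0.49) no longer passed, and with scaling by total counts S100A2 (-0.58), S100A10 (-0.59), S100A13 (-0.70) and S100A16 (-0.56) did not, while S100A3 (1.36) did. Between EHF+CDX1 and EHF cells S100P alone passed, with the same limit of the filter, where 2.68% of all tested genes did, 2.49% higher.

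**Figure D1:**
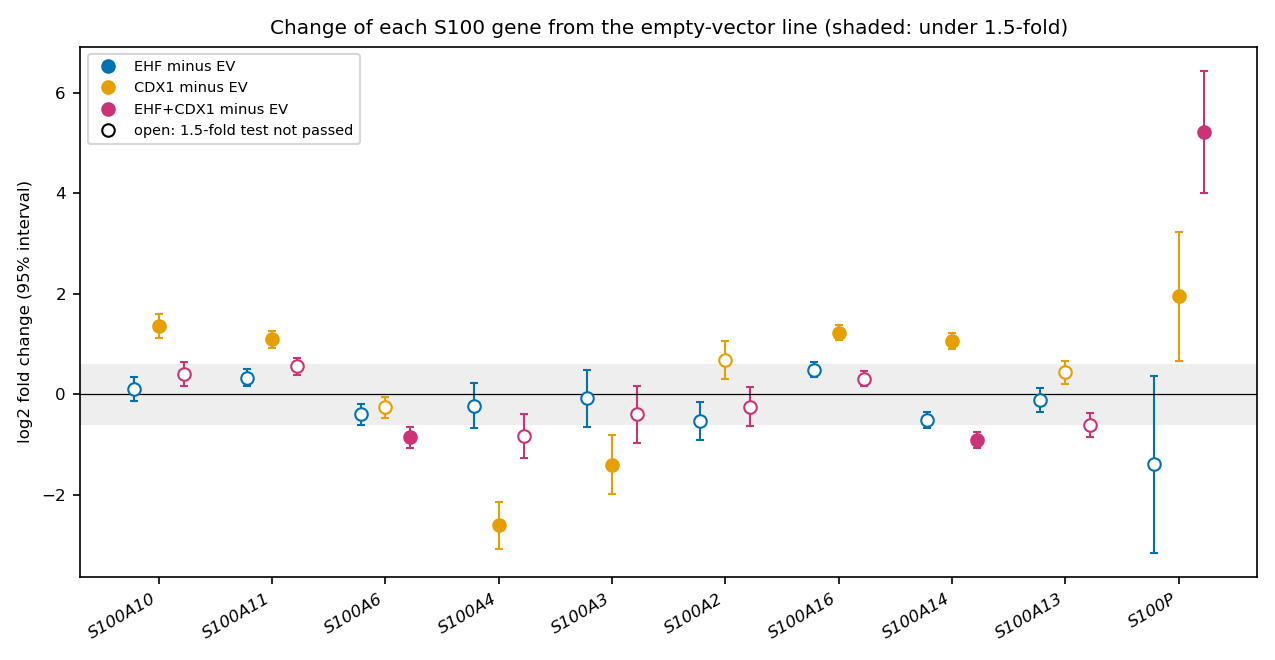
Log2 fold change of each S100 gene (y axis) in the 3 lines against EV cells, with the 95% interval; filled points passed the 1.5-fold test and the shaded band spans changes under 1.5-fold. All 10 points of EHF are open, 7 of CDX1 and 3 of EHF+CDX1 are filled, and S100P in EHF+CDX1 stands highest at 5.22.

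The interaction is the log2 change from CDX1 to EHF+CDX1 cells minus that from EV to EHF cells. The first of these changes goes with a rise of CDX1 itself from 525 to 5419 CPM and with the selection of clones, so EHF, the level of CDX1 and the clone cannot be told apart in it. The second compares lines of isolated clones, so EHF and the clone cannot be told apart there either. These changes also start from different levels of EHF, 12.3 CPM in CDX1 and 299 CPM in EV cells. The interaction passed the 1.5-fold test for 7 of the 10 genes, beside 38.2% of all tested genes, 20.2% positive and 18.0% negative. It was positive for S100A4 (2.01, SE 0.32, adjusted p = 0.00108) and S100P. It was negative for S100A14 (-1.46, SE 0.11, adjusted p = 1.08e-05), S100A16 (-1.40, SE 0.11, adjusted p = 1.11e-05), S100A10 (-1.05, SE 0.17, adjusted p = 0.00812), S100A13 and S100A11 (-0.86, SE 0.12, adjusted p = 0.0157). The S100A13 value of -0.94 (SE 0.17, adjusted p = 0.0225) missed the test without EV replicate 2 (-0.84, adjusted p = 0.0519) or EHF+CDX1 replicate 1 (-0.84, adjusted p = 0.0612). The S100A3 value of 1.08 (SE 0.42, adjusted p = 0.122) passed it without CDX1 replicate 2 (1.56, adjusted p = 0.00813) or EV replicate 3 (1.21, adjusted p = 0.0374). With limma voom and quantile normalization S100A10 (-0.69), S100A11 (-0.54) and S100A13 (-0.84) did not pass, nor did they with scaling by total counts (-0.72, -0.53 and -0.63), where S100A3 passed (1.40, adjusted p = 0.0423). The S100P value of 4.66 (SE 1.04, adjusted p = 0.00399) rests on EV replicate 3, without which it was -1.12 (adjusted p = 0.658). S100P entered this test too only through the lines where it was high, so its value is a description. Among the other 9 genes the interaction passed as positive for 1 and as negative for 5.

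Per length, on the RPKM scale of the deposited values, the 10 genes summed to 2102 ± 187 in EV, 1863 ± 27.0 in EHF, 1837 ± 152 in CDX1 and 1552 ± 34.7 in EHF+CDX1 cells (SD, n = 3). The deposited values are quantile-normalized, while the levels and tests above use TMM-scaled CPM. From EV to CDX1 cells S100A6 went from 1157 to 734.6 RPKM, but from 772.5 to 647.0 CPM. The sums of these lines can therefore stand in another order on the CPM scale. S100A6 made up 55.1 ± 2.12% of the sum in EV and 39.9 ± 2.68% in CDX1 cells. S100A14 took the next largest share in CDX1 cells, at 21.6 ± 0.649%, against 12 ± 0.69% in EV and 8.93 ± 0.502% in EHF+CDX1 cells. The share of S100A4 went from 15 ± 2.7% in EV to 2.74 ± 0.563% in CDX1 and 11.9 ± 0.653% in EHF+CDX1 cells. S100P, at 11.5 ± 1.76 RPKM in EHF+CDX1 cells, stayed at 0.744 ± 0.125% of the sum, above S100A2 (8.33 ± 0.639 RPKM) and S100A3 (4.05 ± 1.08 RPKM) in that line.

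**Figure D2:**
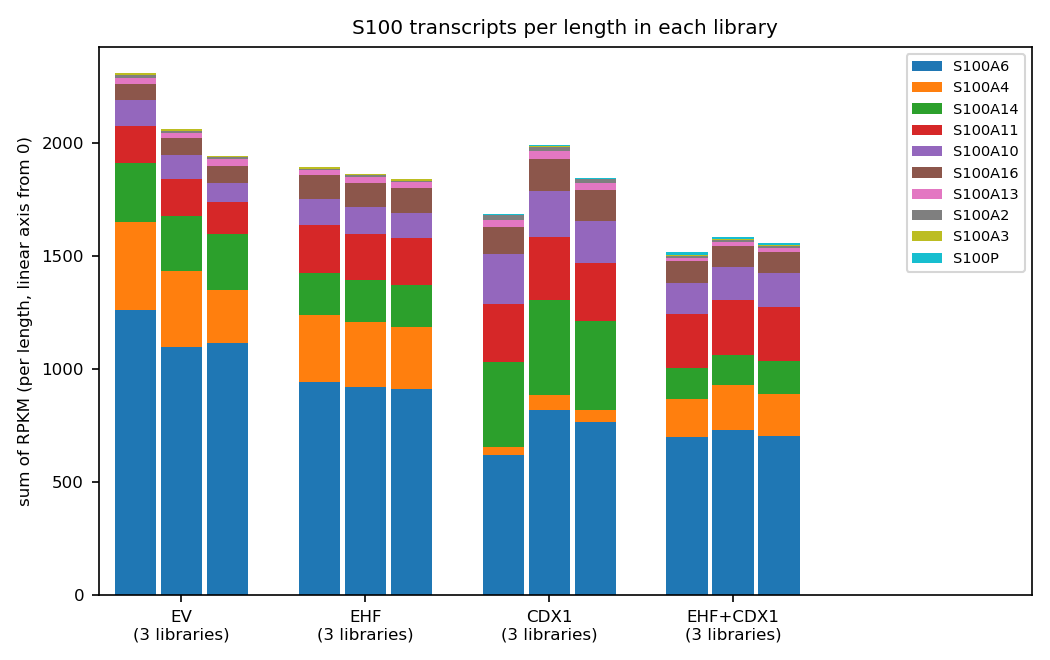
Sum of RPKM (deposited, quantile-normalized values) over the 10 S100 genes (linear y axis from 0) in each of the 12 libraries, stacked by gene. S100A6 is the largest block throughout, the S100A4 block narrows to 2.74% in CDX1 cells, and the S100A14 block is widest there at 21.6%.

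All the S100 genes but S100P lie on chromosome 1, on the minus strand, between chr1:151982915 and 153634361 in GRCh38.p14, a span of 1651447 bases, and S100P lies at chr4:6693878-6697170. In CDX1 cells the 2 S100 genes that fell were next to each other, in a run of 4 tested genes that all fell relative to EV cells. From left to right these were S100A5 (chr1:153537147-153543685), S100A4 (chr1:153543621-153545806), the uncharacterised gene LOC101928034 (chr1:153545742-153551769, plus strand) and S100A3 (chr1:153547329-153549258). S100A5 fell by 2.97 on the log2 scale (SE 0.33, adjusted p = 2.28e-05) and LOC101928034 by 2.77 (SE 0.32, adjusted p = 3.76e-05). No CDX1 library of S100A5 or LOC101928034 reached the 0.5 CPM of the filter. The filter thus favoured the direction of these changes, and their values are a description. S100A6 on the left of this run (log2 -0.26) and S100A2 on its right (0.69) did not pass.

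The 4 genes were counted on overlapping ground. S100A4 overlaps S100A5 and LOC101928034, and S100A3 lies within LOC101928034. The strand setting of the counting is not given in the sources used here, so reads from overlapping genes may be counted for the wrong gene or for none. In EHF+CDX1 against CDX1 cells S100A5 rose by 2.57 (SE 0.33, adjusted p = 0.000107) and LOC101928034 by 2.54 (SE 0.32, adjusted p = 0.000103), as S100A4 did. The limit of the filter given above holds for S100A5 and LOC101928034 here too.

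Among 6 other tested genes within the span, 1 was higher and 2 were lower in CDX1 than in EV cells, beside 21.3% and 23.3% of all tested genes, and none passed in EHF+CDX1 cells, beside 10.4%. The higher gene was CHTOP (log2 1.10), a chromatin-linked RNA-binding protein gene that overlaps S100A13. S100A13 also overlaps S100A1, so the limit given above on reads of overlapping genes holds for S100A13 too.

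**Figure D3:**
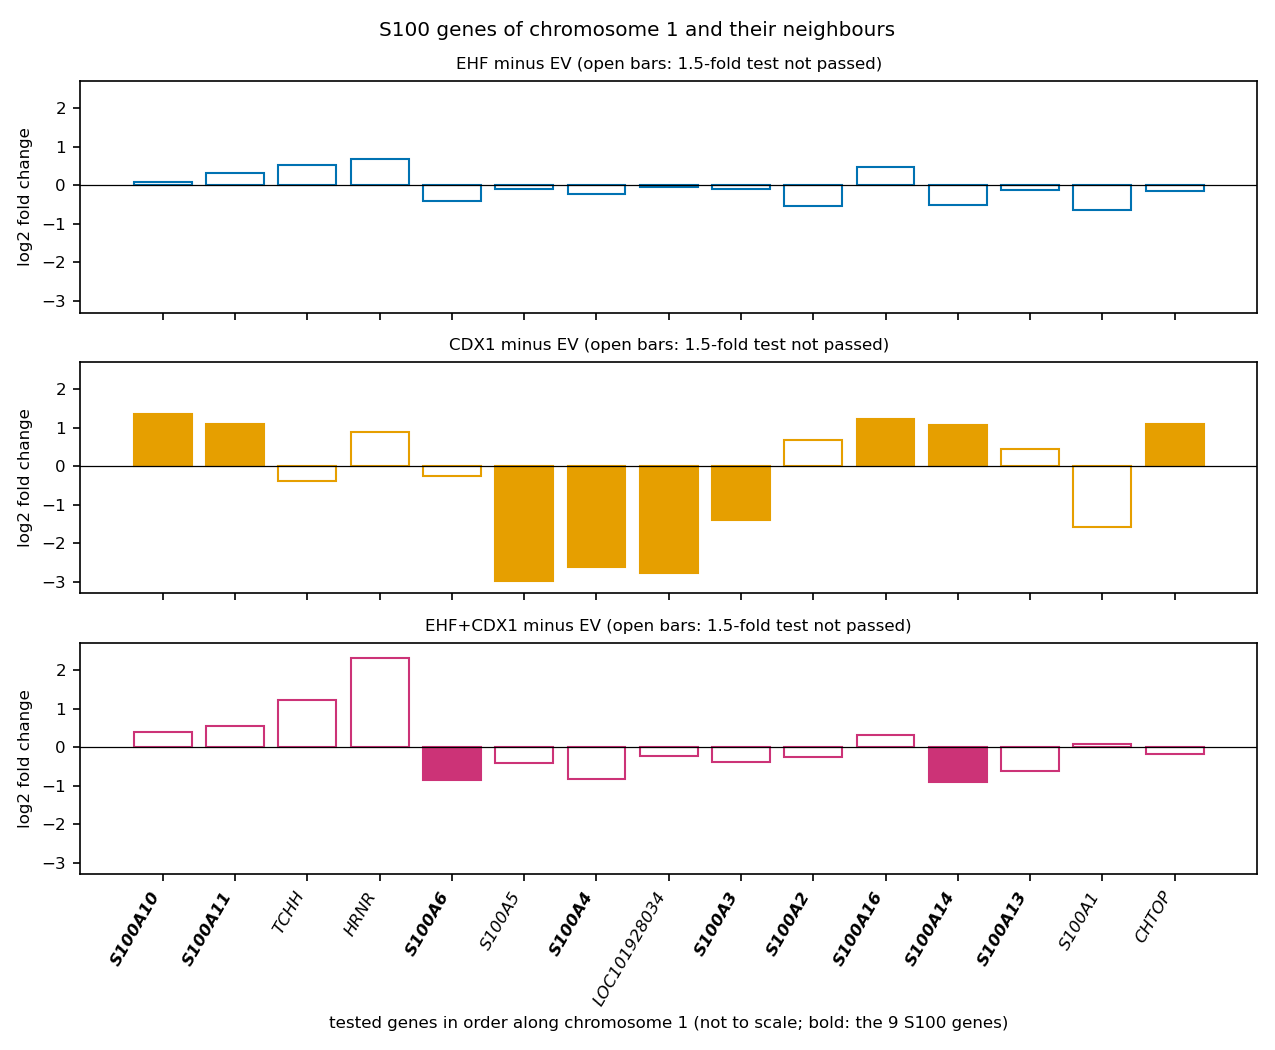
Log2 fold change against EV cells (y axis) of the 15 tested genes of the span in their order along chromosome 1, not to scale, in the 3 other lines; filled bars passed the 1.5-fold test and bold names are the 9 S100 genes followed here. S100A5, S100A4, LOC101928034 and S100A3 form the run of filled bars that point down in CDX1 cells, from -2.97 to -1.40.

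The count table held 11 further S100 genes, of which S100A1 and S100A5 passed the filter on CPM. S100A8, S100A7A and S100A7L2 had 0 reads in every library. S100A9 and S100A12, which with S100A8 are the S100 proteins typical of myeloid cells, had at most 6 reads in a library. S100B, S100G, S100Z and S100A7 had at most 7.

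Of 25 genes for proteins that bind S100 proteins or act with them, 24 were tested, and 6 were higher and 5 lower in CDX1 than in EV cells. These 11 of 24 genes are a share near the 44.6% of all tested genes that passed. The annexins that pair with S100A10 and S100A11 were among the higher genes. ANXA2 measured 280.9, 251.3 and 256.4 CPM in EV and 505.0, 489.4 and 451.7 CPM in CDX1 libraries, without overlap (log2 0.87, SE 0.09, adjusted p = 0.00192). ANXA1 rose by 1.02 (SE 0.09, adjusted p = 0.000157). ANXA2 was also higher in EHF (0.81, SE 0.09, adjusted p = 0.0361) and EHF+CDX1 cells (0.85, SE 0.09, adjusted p = 0.013), where S100A10 did not pass. AHNAK, a scaffold of the S100A10 and ANXA2 complex, did not pass in CDX1 or EHF+CDX1 cells (log2 -0.56 and -0.29).

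The myosin partners of S100A4 went in opposite directions in CDX1 cells. MYH9, the heavy chain of non-muscle myosin IIA, rose by 0.92 (SE 0.16, adjusted p = 0.0165) and MYH10, that of myosin IIB, fell by 1.68 (SE 0.11, adjusted p = 1.03e-06). MYH10 measured 36.7, 36.8 and 36.9 CPM in CDX1 libraries, against 131.6, 127.3 and 95.7 CPM in EV and 84.7, 82.6 and 80.4 CPM in EHF+CDX1 libraries. CACYBP, which binds S100A6 and S100P, measured 354.3, 281.2 and 309.3 CPM in CDX1 libraries and 105.3, 101.5 and 33.3 CPM in EV libraries (log2 1.98, SE 0.32, adjusted p = 0.000714), where EV replicate 3 was the lowest. SUGT1, a co-chaperone that binds S100A6, rose by 0.96 (SE 0.16, adjusted p = 0.0128). The other 4 lower genes were PPFIBP1, or liprin beta-1, which binds S100A4 (log2 -1.004, SE 0.07), the calcium channel gene TRPV6, which S100A10 and ANXA2 help to the membrane (-2.45, SE 0.51), the phosphatase gene PPP5C (-1.04, SE 0.15) and CTSB, the gene of cathepsin B (-1.03, SE 0.18). Their CDX1 libraries lay below all EV libraries, and TRPV6 was low throughout, at 1.08 CPM on average in EV and 0.207 CPM in CDX1 cells. No CDX1 library of TRPV6 reached the 0.5 CPM of the filter, so that the filter favoured its direction. EZR, the ezrin gene, stood at 2038 to 2392 CPM on average in the 4 lines, and neither it nor IQGAP1 nor S100PBP, all partners of S100P, passed in CDX1 or EHF+CDX1 against EV cells.

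In EHF+CDX1 against EV cells, 3 of the 24 genes were higher and none lower, namely ANXA2, FGF1 and TLR4, beside 7.3% and 3.13% of all tested genes. FGF1 and TLR4 passed the filter on CPM through no EV library, so that the filter favoured their direction. FGF1, the growth factor that S100A13 helps to release, averaged 0.14 CPM in EV, 0.703 CPM in EHF, 1.61 CPM in CDX1 and 0.914 CPM in EHF+CDX1 cells, and passed in each line against EV cells (log2 2.02, 3.30 and 2.44). TLR4, a receptor for extracellular S100A8 and S100A9, had 103, 75 and 19 reads in EHF+CDX1 and 0 reads in all other libraries, at least 10.7-fold higher against 3 counts per library in EV cells. AGER, the gene of the receptor RAGE, averaged 10.5, 7.37, 18.6 and 8.29 CPM in EV, EHF, CDX1 and EHF+CDX1 cells. Its EV mean was raised by replicate 3, with 6.93, 6.96 and 17.5 CPM in the EV libraries. AGER fell from CDX1 to EHF+CDX1 cells (log2 -1.16, SE 0.29, adjusted p = 0.0289).

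Among 36 other EF-hand calcium-binding genes 28 were tested. In EHF+CDX1 cells 4 were higher than in EV cells and none lower, beside 7.3% and 3.13% of all tested genes. These were VSNL1, a neuronal-type calcium sensor, TESC, the gene of tescalcin, CALB2, the gene of calretinin, and HPCAL1. VSNL1 had 8, 2 and 5 reads in EV and 2160, 2037 and 563 reads in EHF+CDX1 libraries (log2 7.92, SE 0.25, adjusted p = 2.66e-09). TESC rose by 2.98 (SE 0.16), CALB2 by 1.94 (SE 0.19) and HPCAL1 by 0.86 (SE 0.10). All 4 also passed in EHF cells, at 8.52, 2.40, 2.13 and 1.44, where no S100 gene did and 5.68% of all tested genes were higher. VSNL1 passed the filter on CPM through the EHF and EHF+CDX1 libraries alone.

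Genes with the most similar pattern over the 12 libraries were sought for the 3 S100 genes with the widest spread, by Pearson's r of log2 CPM, which is a description, since the libraries of a line share their line. For S100P they were LMO7 (r = 0.984), PARP10 (0.978) and SLCO1B3 (0.974), and for S100A4 SPCS1 (0.994), MPI (0.992) and BBS2 (0.991). For S100A14 they were the ribosomal protein genes RPS16 (0.996) and RPS6 (0.994) and PHF20 (0.992). Among the 10 genes themselves, S100A4 and S100A10 ran most opposite, at r = -0.93.

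The pattern shared by S100A14 and the 2 ribosomal protein genes led to all 79 tested ribosomal protein genes, which were looked at after these values were seen. Their median log2 change was 0.64 in CDX1 against EV cells, -0.47 in EHF+CDX1 against EV cells and -1.09 in EHF+CDX1 against CDX1 cells. The S100 transcripts are short, with exon lengths of 510 to 1626 bases. Among all 2179 tested genes in that range of lengths, 21.3% were higher and 20.5% lower in CDX1 than in EV cells, with a median log2 change of 0.03.

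CDX1 libraries differed from the rest in other measures, given here beside the S100 changes of that line. The lower sum of the 5 epithelial genes in this line, given above, is one of them, and it came mainly from the keratins KRT8, KRT18 and KRT19. Their TMM factors lay between 0.799 and 0.845, against 0.973 to 1.09 in the other lines. Scaled by total counts alone, the median of all genes moved to -0.37 in CDX1 against EV cells, and S100A11 (log2 0.74, adjusted p = 0.0572), S100A14 (0.72, adjusted p = 0.0647) and S100P (1.65, adjusted p = 0.0766) no longer passed. With limma voom and quantile normalization S100A3 (-1.24, adjusted p = 0.074), S100A11 (0.76, adjusted p = 0.0634) and S100A14 (0.65, adjusted p = 0.411) did not pass in that comparison. Of 5 leukocyte markers 3 were tested, and the 5 summed to 79.8 to 91.3 CPM in CDX1, 41.1 to 45.1 CPM in EHF+CDX1, 13.5 to 14.8 CPM in EHF and 2.51 to 10.8 CPM in EV libraries. CD68 made up most of the sum in CDX1 cells and LYZ and CD68 in EHF+CDX1 cells, while PTPRC, which defines leukocytes, had at most 6 reads and CD3E at most 3 in a library. Of 5 fibroblast markers 2 were tested, summing to 167.6 to 220.0 CPM in CDX1 and 33.7 to 74.9 CPM in the other libraries, nearly all from COL1A1, while COL1A2, DCN and LUM had at most 7 reads. The 3 endothelial markers summed to 0.258 to 1.88 CPM. The part of the marker genes and of the ribosomal protein genes in the S100 changes was not tested.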

How the data were processed

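PolyA RNA of 4 HCT116 lines was sequenced as 3 libraries each. Reads were aligned by the authors with Subread to the GRCh38/hg38 build, those that mapped to a single place were kept, and featureCounts assigned them to RefSeq exons (both tools 2.0.0 in the submitters' processing notes). They deposited raw counts per gene for 28395 genes, 550 of them without a symbol, and log2 RPKM values for 15853 genes, made with a CPM filter, limma voom, quantile normalization and exon length. The strand setting of the counting is not given in the sources used here. RPKM shares were computed from 2 to the power of the deposited log2 RPKM.

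The test used edgeR 4.0.16 in R 4.3.3. Genes at 0.5 CPM or more in at least 3 libraries were kept, the same 15853 genes, which left out 0.0585% of counts. All 12 libraries were fitted together with TMM factors by a quasi-likelihood model of line. A gene passed where glmTreat against a 1.5-fold change gave a Benjamini-Hochberg adjusted p under 0.05 over all 15853 genes, which is the adjusted p printed unless a test against no change is named. Log2 changes and SE are those of the same model tested against no change. Levels are TMM-scaled CPM. Total counts ranged from 13523007 to 74186741 per library, and precision is lowest for S100P and S100A3. Positions and promoter windows came from RefSeq tables of GRCh38.p14.

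Levels or reads of all 10 S100 genes are given by library or as line means, with the comparisons that passed and some that did not. From the other lists, genes were named that passed in EHF+CDX1 against EV cells, or whose S100 partner passed a test. Neighbours are the tested genes from S100A10 to the end of S100A13; the genes on either side of that span are not reported here. The genes of like pattern are the 3 with the highest r among genes of mean log2 CPM of at least 1. S100A9, S100A12, CHTOP and the ribosomal protein genes were named after their values were seen. The S100 genes and all lists were chosen with earlier results of these data known.

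Alternatives were RLE factors, total counts only, no filter beyond 1 count, a test against no change, fits of the compared lines only, a replicate block, each library left out, DESeq2 1.42.0, limma 3.58.1 with voom and quantile normalization, and limma on the log2 RPKM values. A fit of counts thinned to the depth of the smallest library was added after the data were seen. The methods were tested on simulated data.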

Additional observations from a re-analysis of the deposited data

Results flagged for a closer look

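The change from CDX1 to EHF+CDX1 cells differed from the change from EV to EHF cells for 7 S100 genes, by the interaction term of the edgeR fit against a 1.5-fold change. The differences of log2 change were 4.66 for S100P, 2.01 for S100A4, -1.46 for S100A14, -1.40 for S100A16, -1.05 for S100A10, -0.94 for S100A13 and -0.86 for S100A11, each over 3 libraries per line. Of all tested genes 38.2% passed the same test. The S100P value was -1.12 without EV replicate 3, which holds all 19 reads of that gene in its line. S100P entered the test only through the lines where it was high, so its value is a description. Among the other 9 genes 1 passed as positive and 5 as negative. CDX1 itself averaged 525 CPM in CDX1 and 5419 CPM in EHF+CDX1 cells, so EHF, the level of CDX1 and the clones cannot be told apart in these values. EHF averaged 12.3 CPM in CDX1 and 299 CPM in EV cells, so the changes also start from different levels of EHF.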

How the results depend on the processing

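Of 1310 alternative values of the 10 S100 genes, 1219 kept their direction and their side of the threshold, 58 lost a call, 27 gained 1 and 6 changed sign. The count of genes past the 1.5-fold test in CDX1 against EV cells went from 7 to 4 with total counts only, with limma voom and with limma on log2 RPKM. Over all tested genes the calls there went from 3384 higher and 3691 lower to 2273 and 5115 with total counts only. They were 2691 and 2799 with limma voom and 2605 and 2770 with limma on log2 RPKM. The count between EHF+CDX1 and CDX1 cells went from 7 to 4 with total counts only, and that of the interaction from 7 to 4 with both limma fits. Over all tested genes the former went from 3529 higher and 2970 lower to 5074 and 1765. The interaction over all tested genes went from 3202 positive and 2853 negative to 2329 and 2307 with limma voom. With limma on log2 RPKM it gave 2285 and 2232. Against no change, 4 genes differed in EHF against EV cells, beside 30.1% of all tested genes. In EHF+CDX1 against EV cells 8 differed, where 2674 of all 15853 tested genes were higher and 2654 lower. In EHF+CDX1 against EHF cells 4 differed, where 896 were higher and 654 lower. All 10 differed in CDX1 against EV cells, where 5352 were higher and 5569 lower. All 10 also differed in EHF+CDX1 against CDX1 cells, where 5531 were higher and 5122 lower. The interaction of S100A6, not called, was 0.12 with total counts only and 0.28 with both limma fits, against -0.20. Leaving out 1 library at a time gave -0.021 to 0.21 for S100A10 and -1.96 to 4.38 for S100P in EHF against EV cells, neither called, and -1.12 to 5.23 for the S100P interaction, which thinning the counts to the smallest library also took below the threshold (3.86, adjusted p = 0.0665). S100A6 in EHF+CDX1 against EV cells lost its call in 10 of 22 alternatives, with adjusted p-values up to 0.758. Libraries of the same number did not deviate together (r of -0.07 to 0.08, against -0.11 to 0.09 for libraries of different numbers). With 3 libraries per line this cannot tell whether those of the same number share a culture or handling. With a replicate block the counts were 0, 7 and 2 for EHF, CDX1 and EHF+CDX1 against EV cells. They were 1 and 7 for EHF+CDX1 against EHF and against CDX1 cells, and 7 for the interaction. The S100A6 value in EHF+CDX1 against EV cells was -0.86 (adjusted p = 0.0516). Over all tested genes 1127 were higher and 433 lower there with the block, against 1158 and 496 without it. The cause of these shifts was not tested. Depth limits S100P, with 19 reads in EV and 1 to 5 per library in EHF cells.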
